A study of Mus musculus with 5 samples.

Results

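The baseline transcriptome of ID8 cells was described from 3 of the 5 arrays of the series, those of cells kept in DMEM that held 10% fetal bovine serum (FBS). The labels name these cells as parental ID8 and number the arrays as replicates 1, 2 and 3. ID8 is a cell line that arose from the ovarian surface epithelium of a C57BL/6 mouse by passage in culture, and it forms peritoneal tumours and ascites when it is put back into such mice. The study set these cells beside ID8 cells kept for 7 days in 10% ascites fluid of ID8-bearing mice, a group of 2 arrays that was not analysed here. With a single group and 3 arrays, all values below are descriptions and no test was possible. The labels do not say that the replicates came from separate cultures, so their spread may be technical.

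The ovarian surface epithelium is a modified mesothelium, a single layer continuous with the lining of the peritoneal cavity. Mesothelial cells are unusual among epithelia in carrying simple keratins together with vimentin and N-cadherin, and they carry the transcription factor WT1 and the surface proteins mesothelin and uroplakin 3B. Epithelial ovarian cancer cells live in the same cavity and spread over the same lining.

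Expression of 12393 genes was given as the deposited log2 array signal, with 1 probe set per gene (the one with the highest mean over the 3 arrays). Genes were ranked by their mean over the arrays. The top 10.0% of genes (1239 genes, means of 11.39 and above) are called bright. The arrays carry no detection call, so a dim level was set from 135 reference genes of tissues that these cells are not (photoreceptors and lens, pancreas and gut, liver, muscle, neurons, lymphocytes and red cells). Genes at or below the 90th percentile of those reference means, 6.905, are called dim, and they made up 39.6% of genes (4913). The remaining 6241 genes (50.4%) are called moderate. Probe sets differ in how well they bind their transcript, so a rank is one of array signal and not of transcript number, and a dim signal does not show that a transcript was absent.

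**Figure D1:**
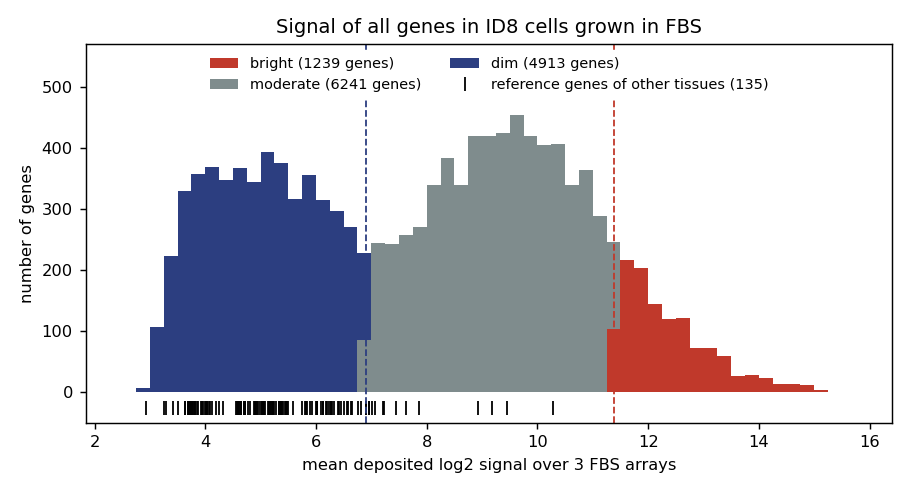
Histogram of the mean deposited log2 signal over the 3 FBS arrays (x axis) against the number of genes (y axis), stacked and coloured by class, with the dim level of 6.905 and the lowest bright mean of 11.39 as dashed lines and the 135 reference genes as ticks below. Gene means run from 2.85 to 15.25, and most reference genes lie at or below the dim level by construction.

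The distribution of gene means had a dim and a brighter mode, with a median of 8.137. The edges of the classes were not gaps. Hnrnpll, Kdelr1 and Nudcd2 lay just inside the bright class at a mean of 11.39, and Txndc9 lay just outside at 11.387. Slc40a1, the iron exporter ferroportin, lay just inside the dim class at 6.903, and Myo6 and Eln lay just outside at 6.907.

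The 3 arrays did not lie equally close. Replicates 1 and 2 differed by an SD of 0.117 on the log2 scale over all genes, and 0 genes differed 2-fold or more between them. Replicate 3 differed from replicate 1 and from replicate 2 by an SD of 0.427 each, with 435 and 444 genes at 2-fold or more. Replicate 3 stood above both other arrays by 1 or more on the log2 scale in 111 genes (0.896%) and below both in 270 genes (2.18%), whereas replicates 1 and 2 stood apart in this way in 0 genes. Its labelling control probe sets were lower too, with medians of 7.75, 8.14 and 7.25 on replicates 1, 2 and 3 and the lowest value on replicate 3 in 24 of 24. The control for the 5′ part of 18S ribosomal RNA read 12.12, 11.32 and 7.90. The middle part read 11.33, 11.33 and 9.70, and the 3′ part 10.61, 10.41 and 8.91. Other controls lay closer. Hybridisation controls had medians of 10.98, 11.125 and 10.945, with replicate 3 lowest in 12 of 18. The 3′ minus 5′ difference was 0.24, 0.31 and 0.34 for beta-actin and -0.05, 0.04 and 0.22 for Gapdh. The part of these technical values in the gene differences was not tested. Values are therefore given for each array in the order replicate 1, 2 and 3, and class counts without replicate 3 are given for some of the lists they change.

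Genes for making protein led the ranking. Of the 25 genes with the highest means, 13 coded for ribosomal proteins, 2 for translation factors and 3 for actin and its partners. In the top 100 these numbers were 35, 6 and 8, with 9 genes of the respiratory chain and ATP synthase. Rpl41, a protein of the large ribosomal subunit, ranked first with 15.21, 15.23 and 15.31. Rplp0, the stalk protein of that subunit, read 14.82, 14.82 and 14.79, and Eef1a1, the factor that brings aminoacyl-tRNA to the ribosome, read 14.95, 14.94 and 14.88. The arrays overlapped closely in these genes, and the SD over the 3 arrays was 0.053 for Rpl41, 0.017 for Rplp0 and 0.038 for Eef1a1.

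Not all of the genes in the top 25 belong to such families. Tpt1, the translationally controlled tumour protein, ranked second with 15.11, 15.11 and 14.99, although its other probe set had a mean of 3.54. Lgals1, the secreted lectin galectin-1, followed with 15.01, 15.05 and 15.05, and its other probe set was bright as well at 14.99. S100a6, a calcium-binding protein, read 14.88, 14.87 and 14.65. Fth1, the heavy chain of the iron store ferritin, read 14.67, 14.64 and 14.93. Tm4sf1, a tetraspan membrane protein of carcinoma and mesothelial cells, read 14.81, 14.76 and 14.52, with a second probe set at 7.92. Chchd10, a mitochondrial protein of the intermembrane space, closed the top 25 with 14.52, 14.55 and 14.56. In these genes the arrays lay within 0.29 of each other.

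Of 80 ribosomal protein genes listed, 44 were measured. Among these 36 were bright, 7 moderate and 1 dim, with a median of the means of 14.297 beside 8.137 over all genes. The dim gene was Rpl39, at 6.35, 6.43 and 6.36. Rpl27a, at 7.62, 7.34 and 7.05, and Rpl12, at 8.41, 8.23 and 9.39, were moderate. Rpl39 and Rpl12 were read by 1 probe set each, and the part of the probes in these signals was not tested. Of 26 translation factors, 23 were bright and 0 dim, with a median of 13.192. Eif5a, which helps the ribosome through proline stretches, read 13.96, 13.88 and 14.24, and Eif4a1, the helicase of the initiation complex, read 13.89, 13.89 and 14.11. Eif4e, the cap-binding protein, was moderate at 10.73, 10.45 and 11.07.

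Energy metabolism was mostly bright. Of 42 genes of the respiratory chain and ATP synthase, 37 were bright and 0 dim, with a median of 12.543. Cox6a1, a subunit of cytochrome c oxidase, had a mean of 14.96 ± 0.055 (SD, n = 3), and Uqcrb, a subunit of complex III, read 14.37, 14.39 and 14.41. Cox7c was the lowest of the list at 7.25, 7.21 and 7.80. Of 13 enzymes of the tricarboxylic acid cycle, 8 were bright and 0 dim, led by the malate dehydrogenase Mdh2 with 13.05, 13.04 and 13.43.

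Glycolysis was bright or moderate, and less even between arrays. Of 18 genes listed, 15 were measured, and of these 7 were bright, 8 moderate and 0 dim, with a median of 11.107. The array control for the middle part of the glycolysis gene Gapdh, which was not ranked, read 14.59, 14.57 and 14.73. Pgk1, phosphoglycerate kinase, read 13.42, 13.46 and 13.97, and Aldoa, the aldolase of glycolysis, read 12.79, 12.80 and 13.80. Replicate 3 was the highest array for 12 of the 15 genes, beside 41.8% of all genes, and its median difference from replicate 1 was 0.83 on the log2 scale, beside 0.01 over all genes. The lactate dehydrogenase subunits, named after their values were seen, went opposite ways. Ldha read 12.25, 12.25 and 13.59, and Ldhb read 13.15, 13.18 and 11.73. Hexokinase 2 (Hk2) and the glucose transporter Slc2a1, named in the same way, read 9.82, 9.79 and 11.19 and 10.19, 10.18 and 11.37. Without replicate 3 the median of the list was 10.905, with 7 genes bright and 1 dim. Eno2, the neuronal enolase, lay next to the dim level with 6.84, 6.94 and 7.12.

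Protein folding and breakdown were bright as well. Of 24 cytosolic chaperones, 18 were bright (16 without replicate 3), with the constitutive Hspa8 at 14.17, 14.18 and 14.30. The dim member was its stress-inducible relative Hspa1a, at 6.38, 6.27 and 6.38. Of 17 chaperones of the endoplasmic reticulum, 10 were bright and 0 dim. Hspa5, whose protein GRP78 is the chaperone named in the title of the study, ranked 68 of all genes with 14.18, 14.14 and 13.64. Replicate 3 was the lowest array for 13 of these 17 genes, beside 33.7% of all genes. Calr, the lectin chaperone calreticulin, read 13.90, 13.87 and 13.46. Of 17 core proteasome subunits, 14 were bright. The 2 dim ones, Psmb8 (5.23, 5.23 and 5.09) and Psmb9 (5.77, 5.77 and 5.77), are among the subunits that replace their standard counterparts in the immunoproteasome.

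**Figure D2:**
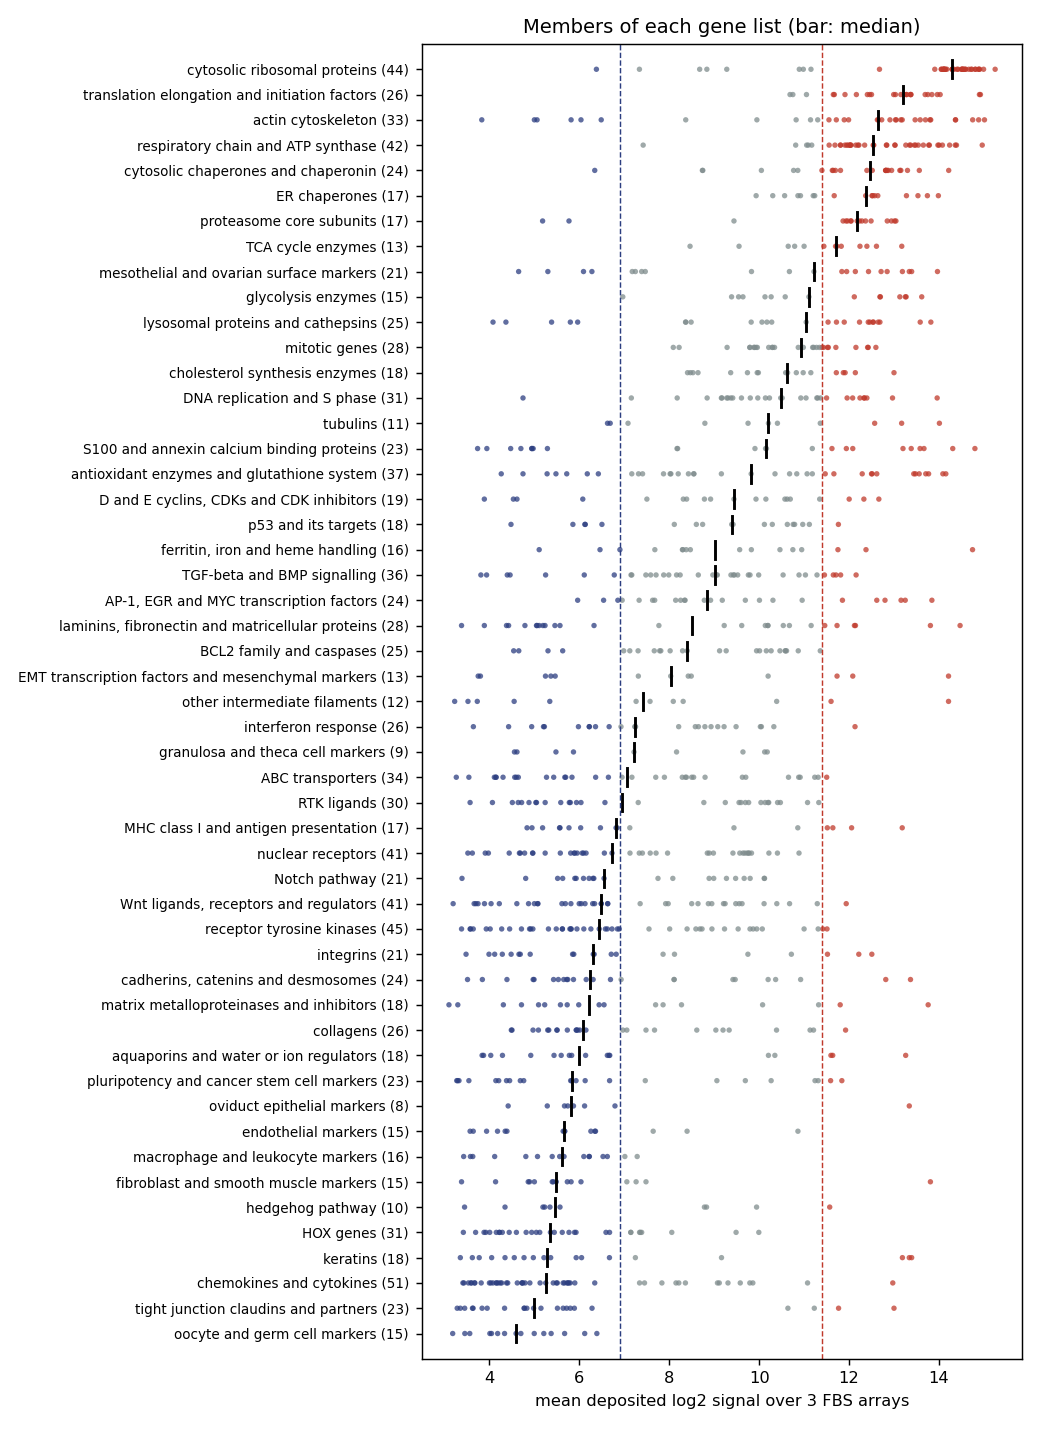
Mean deposited log2 signal over the 3 FBS arrays (x axis) of every measured member of 51 gene lists (rows, number measured in brackets), coloured blue for dim, grey for moderate and red for bright, with the list median as a black bar. The medians run from 14.297 for ribosomal proteins to 4.593 for oocyte markers, and 8 lists have a bright median, 22 a moderate one and 21 a dim one.

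The actin cytoskeleton was divided between cytoplasmic and smooth muscle genes. Of 33 genes, 22 were bright, 5 moderate and 6 dim, with a median of 12.653. The bright ones included cytoplasmic beta-actin, Actb, at 15.09, 15.01 and 14.94, the monomer-binding thymosin Tmsb4x at 14.85, 14.85 and 14.55, and the severing factor cofilin, Cfl1, at 13.74, 13.76 and 13.90. The 6 dim genes were Acta2, Tagln, Myl9, Cnn1, Actg2 and Tpm2, which are typical of smooth muscle. Acta2, smooth muscle alpha-actin, read 6.01, 6.15 and 5.95, and Actg2, the enteric gamma-actin, read 3.83 on every array. Ezrin (Ezr), which ties actin to the membrane of microvilli, read 13.53, 13.41 and 12.61. Of 11 tubulins, 3 were bright, led by Tubb5 with 13.85, 13.93 and 14.25. Tubb4a and Tuba8, at means of 6.69 and 6.63, were dim.

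The bright keratins were those of simple epithelia. Of 18 keratin genes, 3 were bright, 2 moderate and 13 dim. The bright ones were Krt18 (13.50, 13.53 and 13.15), its partner Krt8 (13.43, 13.46 and 13.13) and Krt19 (13.19, 13.22 and 13.15), which form the filaments of simple epithelia. Keratins of stratified epithelia were dim, with Krt5 at 5.98, 6.10 and 6.07, Krt14 at 5.15, 5.49 and 5.45, and Krt1 at 4.71, 4.81 and 4.79. Krt7, a keratin of mesothelium and ducts, was moderate by its mean, with 8.0, 8.08 and 5.66, and its value on replicate 3 lay below the dim level of that array, 6.866. The mesenchymal filament gene Vim was bright beside these keratins, at 14.15, 14.23 and 14.26.

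Of 21 mesothelial and ovarian surface markers, 10 were bright, 7 moderate and 4 dim, with a median of 11.22. Upk3b, the uroplakin of mesothelium, ranked 70 of all genes with 14.63, 14.61 and 12.66. Wt1, the transcription factor of the coelomic lining, read 12.75, 12.72 and 11.83. Msln, mesothelin, the surface protein of mesothelium and many ovarian tumours, read 12.45, 12.51 and 11.46. Gpm6a, a membrane glycoprotein, read 13.23, 13.22 and 12.09, Pdpn, the mucin-like podoplanin, read 12.81, 12.84 and 12.49, and the transcription factor Gata6 read 12.18, 12.15 and 11.51. These genes lay above 11.39 on each array, and in all of them replicate 3 was the lowest.

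Other markers of the same lining were not bright. Bnc1, a zinc finger protein of mesothelium, was moderate with 11.78, 11.67 and 10.21, and Gata4 with 10.91, 10.99 and 10.12. Calb2, calretinin, a standard human mesothelial marker, was dim at 6.28 on every array. Lhx9 (5.50, 5.45 and 4.95), Nr2f1 (6.09, 6.09 and 6.10) and Aldh1a2 (4.75, 4.64 and 4.56) were dim as well. Its relative Aldh1a1, a retinaldehyde dehydrogenase also used as a stem cell marker, was bright with 12.03, 12.09 and 11.40. Lgr5, a receptor of stem cells of the ovarian surface, went the other way between arrays, with 6.68, 6.58 and 9.14. Replicate 3 was the lowest array for 17 of the 21 genes, beside 33.7% of all genes. Its median difference from replicate 1 was -0.55 on the log2 scale. Without replicate 3 the list had 11 bright and 5 dim genes and a median of 11.725, which is a bright median.

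**Figure D3:**
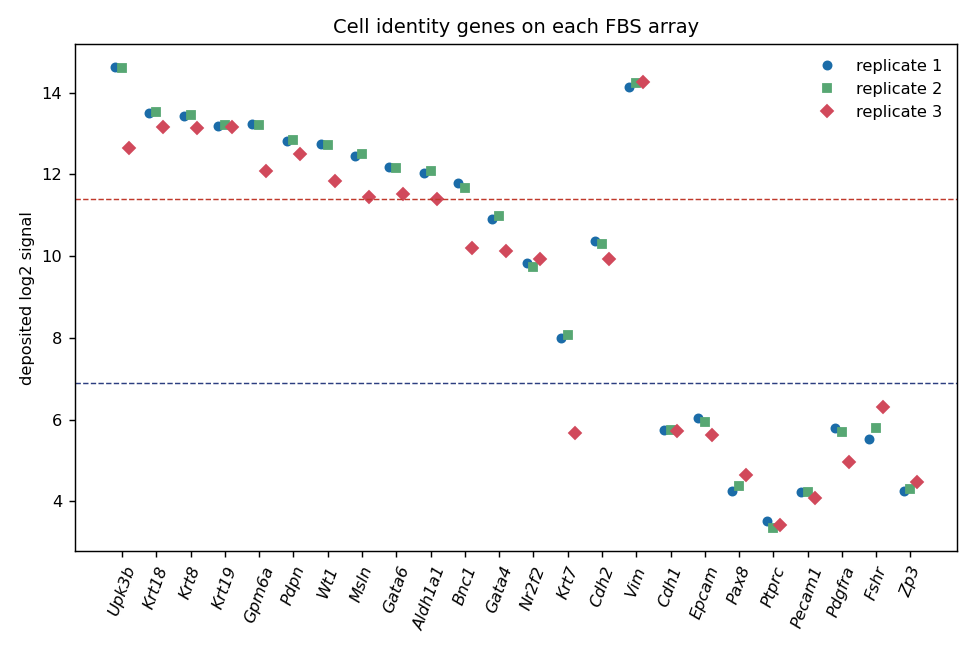
Deposited log2 signal (y axis) of 24 cell identity genes (x axis) on FBS replicates 1, 2 and 3, with dashed lines at the lowest bright mean (11.39) and the dim level (6.905). Upk3b to Aldh1a1 and Vim lie at or above the bright line, the markers from Cdh1 to Zp3 lie below the dim line, and replicate 3 is the lowest array for most of the mesothelial genes, with Krt7 below the dim line only there.

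Markers of the other cells of the ovary and peritoneum were mostly dim. Of 15 oocyte and germ cell markers 15 were dim, from Gdf9 at a mean of 6.39 to Sycp3 at 3.18. Of 16 macrophage and leukocyte markers, 14 were dim and 0 bright, with Ptprc, the pan-leukocyte antigen CD45, at 3.51, 3.34 and 3.43. Of 15 endothelial markers, 12 were dim and 0 bright, with Pecam1 at 4.22, 4.23 and 4.09. The 3 moderate ones were Esam, an adhesion molecule of endothelial junctions, with 11.21, 11.26 and 10.12, the receptor Flt1, with 8.38, 8.60 and 8.21, and the co-receptor Eng, with 7.80, 7.56 and 7.57. Of 15 fibroblast and smooth muscle markers 11 were dim, with Pdgfra at 5.79, 5.69 and 4.96, and only Dcn, the matrix proteoglycan decorin, was bright, at 14.32, 14.30 and 12.81. Of 8 oviduct markers, 7 were dim, with the transcription factor Pax8 at 4.24, 4.37 and 4.64, and the bright one was Krt8, which is shared with the surface epithelium.

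Granulosa and theca markers, which belong to the hormone-making cells of the follicle, were less uniform. Of 9 measured, 0 were bright, 5 moderate and 4 dim. The dim share of 44.4% was near the 39.6% of all genes. Star, the steroidogenic carrier of cholesterol into mitochondria, read 10.64, 10.61 and 9.29. Amhr2, the receptor of anti-Müllerian hormone, read 10.99, 11.14 and 8.24, and Nr5a1, the steroidogenic transcription factor SF-1, read 9.80, 9.80 and 9.32. Inha, the inhibin alpha subunit, read 8.79, 8.85 and 6.85. In these 4 genes replicate 3 was the lowest array, beside 33.7% of all genes. It was the highest array in 3 of the 9, beside 41.8% of all genes. The side-chain cleavage enzyme Cyp11a1 (4.60, 4.64 and 4.60), Cyp17a1 (5.48 on each array), Hsd3b1 and the receptor Fshr (5.52, 5.79 and 6.30) were dim.

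Junction genes were more often dim than all genes, while their bright share was near that of all genes. Of 24 cadherins, catenins and desmosomal genes, 2 were bright (8.3%, beside 10.0% of all genes). Another 8 were moderate and 14 dim (58.3%, beside 39.6%). Ctnnb1, beta-catenin, read 13.40, 13.37 and 13.33, and its partner Ctnna1 had a mean of 12.82. With all probe sets of a gene averaged, 0 of these 24 genes were bright. Cdh2, N-cadherin, was moderate at 10.37, 10.29 and 9.94, whereas Cdh1, E-cadherin, was dim at 5.75, 5.75 and 5.73. The epithelial adhesion molecule Epcam was dim too, with 6.05, 5.95 and 5.61. Of 23 claudins and tight junction partners, 2 were bright (8.7%) and 19 dim (82.6%). The dim ones included occludin, Ocln, at 3.26, 3.33 and 3.26. F11r, the junctional adhesion molecule JAM-A (13.38, 13.36 and 12.26), and Tjp1, the scaffold ZO-1 (11.96, 11.95 and 11.39), were bright. Cldn15 (11.94, 11.91 and 9.83) and Cldn3 (10.69, 10.56 and 10.67) were moderate, and 3 genes of the list were bright without replicate 3.

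In the extracellular matrix the bright collagen was a chain of basement membranes. Of 26 collagens, 1 was bright, 11 moderate and 14 dim. Col4a1 was bright with 12.10, 12.10 and 11.57, and Col4a2 was moderate with 11.37, 11.40 and 10.86. Col1a1 (7.66, 7.82 and 6.97) was moderate and Col1a2 (5.69, 5.69 and 5.82) dim, the chains of fibrillar type I collagen. Replicate 3 lay below both other arrays by 1 or more in 5 of the 26 collagens, beside 2.18% of all genes. These collagens included Col6a1 (11.16, 11.02 and 8.98) and Col5a2 (10.02, 10.15 and 7.42). Of 28 laminins and other matrix proteins 6 were bright, with the collagen-binding Sparc at 14.57, 14.58 and 14.26 and fibronectin, Fn1, at 12.08, 12.28 and 10.84. The other probe set of Fn1 had a mean of 5.33.

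Of 21 integrins, 3 were bright and 14 dim. The bright ones were Itgav (12.58, 12.60 and 12.34), Itga3 (12.16, 12.31 and 12.18) and Itgb5 (11.79, 11.89 and 10.88), which take part in binding vitronectin and laminin. Without replicate 1 or without replicate 2, 2 integrins were bright. Itgb1, the beta chain shared by most integrins, was moderate at 10.03, 9.79 and 9.43, over 6 probe sets of which the lowest had a mean of 3.92. Of 18 matrix metalloproteinases and their inhibitors, 2 were bright (11.1%, beside 10.0% of all genes). The bright ones were inhibitors, Timp2 (13.80, 13.83 and 13.65) and Timp3 (12.32, 12.25 and 10.84). The proteases were moderate or dim, with the membrane-bound Mmp14 at 8.52, 8.75 and 7.55 and Mmp3 at 4.26, 4.30 and 4.37. The proteases Mmp13 and Mmp10 were higher on replicate 3, with 6.87, 6.46 and 9.76 and 7.12, 7.05 and 9.42.

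Calcium-binding, lysosomal and redox genes each had a bright core. Of 23 S100 and annexin genes, 9 were bright and 8 dim. Anxa1, the annexin of the glucocorticoid response, read 14.37, 14.32 and 14.23, whereas S100a8 and S100a9, which mark myeloid cells, were dim with means of 4.94 and 5.29. Of 25 lysosomal genes, 12 were bright, with the sterol carrier Npc2 at 13.94, 13.94 and 13.58, and 5 dim, among them Ctss, a cathepsin of antigen-presenting cells, at a mean of 4.08. Of 37 antioxidant genes, 13 were bright, with the peroxiredoxin Prdx2 at 14.25, 14.26 and 13.95, and 7 dim, with the gut peroxidase Gpx2 at 5.25, 5.32 and 5.28. Of 16 iron and heme genes, 3 were bright. One of these, the transferrin receptor Tfrc, read 11.16, 11.03 and 13.07 and was not bright without replicate 3, when its mean was 11.095.

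Genes of cell division lay in the moderate to bright range. Of 31 genes of DNA replication, 9 were bright, 21 moderate and 1 dim, with a median of 10.48. Pcna, the sliding clamp, read 13.86, 13.78 and 14.24, and Mcm7, a subunit of the replicative helicase, read 12.81, 12.86 and 13.23. The dim gene, Tyms, thymidylate synthase, read 4.54, 4.61 and 5.09 with the highest of its 3 probe sets. Of 28 mitotic genes, 9 were bright and 0 dim. Ube2c, the ubiquitin-conjugating enzyme of the anaphase-promoting complex, read 12.53, 12.57 and 12.69, and Top2a, topoisomerase II alpha, read 12.25, 12.33 and 12.70. Replicate 3 was the highest array in 31 of the 31 replication genes and in 26 of the 28 mitotic genes, beside 41.8% of all genes. The median differences from replicate 1 were 0.58 and 0.465. Without replicate 3, 8 replication genes and 5 mitotic genes were bright.

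Cell cycle regulators were mostly moderate. Of 19 D and E cyclins, their kinases and inhibitors, 3 were bright, namely Ccnd2 (12.55, 12.58 and 12.86), the kinase Cdk4 (12.03, 11.96 and 12.02) and its inhibitor Cdkn2c (12.38, 12.39 and 12.22). The inhibitor genes Cdkn2a, at 3.83, 3.71 and 4.12, and Cdkn2b, at 4.38, 4.43 and 4.79, were dim, and Cdkn1a, which codes for p21, was moderate at 10.65, 10.60 and 10.62. Of 18 genes of the p53 pathway 1 was bright, Ccng1 at 11.83, 11.78 and 11.68. Without replicate 3 a second was bright, Btg2, an antiproliferative target of p53, which read 11.86, 11.45 and 9.60. Of 25 genes of the BCL2 family and caspases, 0 were bright and 21 moderate, with the survival factor Mcl1 leading at 11.43, 11.38 and 11.27.

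Receptors and ligands of growth factors were seldom bright. Of 45 receptor tyrosine kinases, 2 were bright, 15 moderate and 28 dim. The bright ones were the collagen receptor Ddr1 (11.84, 11.87 and 10.82) and the GAS6 receptor Axl (11.69, 11.68 and 10.88), and each had another probe set below the dim level. Without replicate 1, and likewise without replicate 2, 0 receptor tyrosine kinases were bright. Flt4, the receptor of lymphatic growth factors, read 11.86, 11.86 and 10.22 and was bright without replicate 3. Egfr was moderate at 8.55, 8.59 and 8.64, and Erbb4 dim at 3.24, 3.59 and 3.31. Of 30 ligands, 0 were bright, with the EGF family member Btc at 11.35, 11.41 and 11.22 and the macrophage growth factor Csf1 at 11.67, 11.59 and 9.97. Csf1 was bright without replicate 3. Fgf2 was dim at 3.49, 3.61 and 3.61.

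Developmental pathways differed in how many members passed the dim level. The dim share was 19.4% for TGF-beta and BMP signalling, 58.5% for Wnt, 52.4% for Notch and 60.0% for hedgehog genes. Over all genes it was 39.6%. The bright shares were 13.9%, 2.4%, 0.0% and 10.0% in the same order, beside 10.0% of all genes. Without probe sets ending in _x_at or _s_at, 0 hedgehog genes were bright. Of 36 genes of TGF-beta and BMP signalling, 5 were bright and 7 dim (6 and 8 without replicate 3), with the BMP target Id1 at 12.41, 12.33 and 11.73, the ligand Bmp4 at 11.76, 11.72 and 11.47 and the receptor Tgfbr2 at 11.87, 11.80 and 11.46. Of 41 Wnt genes, 1 was bright and 24 dim. That gene was the ligand Wnt10a, at 11.67, 11.61 and 12.53, followed by Wnt6 at 11.10, 11.21 and 11.57. Of 21 Notch genes 0 were bright, with the receptor Notch2 at 10.04, 10.24 and 10.08. Of 10 hedgehog genes, the transducer Smo was bright (11.87, 11.90 and 10.94), while the pathway's output factor Gli1 was dim at 5.57 on each array and the ligand Shh at 4.35, 4.34 and 4.35.

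The bright transcription factors included immediate early genes, which growth factors induce. Of 24 AP-1, EGR and MYC family genes, 6 were bright and 3 dim. Fos read 14.10, 14.16 and 13.27, Egr1 read 13.88, 13.87 and 12.00, Jund read 13.23, 13.25 and 12.99, and Junb read 12.09, 12.31 and 11.16. Replicate 3 was the lowest array for these 4 genes and for 17 of the 24, beside 33.7% of all genes. Myc was moderate at 9.52, 9.56 and 10.00. Of 41 nuclear receptors, 0 were bright, 20 moderate and 21 dim. The circadian repressor Nr1d2 led them with 11.07, 11.04 and 10.55, and the glucocorticoid receptor Nr3c1 read 10.44, 10.44 and 10.34. The progesterone receptor Pgr was dim at 3.45, 3.60 and 3.51, as was the estrogen receptor Esr1, named after its value was seen, at 3.79, 3.91 and 4.02. Of 31 HOX genes, 0 were bright and 23 dim, with Hoxd8 (10.04, 10.06 and 9.88) and Hoxd9 (9.49, 9.55 and 9.42) leading. Among EMT factors Snai2 was moderate at 8.58, 8.53 and 8.36, while Twist1 was dim at 3.64, 3.74 and 3.87.

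Cytokine genes fell mostly in the dim class, and the dim share of interferon response genes was near that of all genes. Of 51 chemokines and cytokines, 37 were dim and 1 bright. The bright gene was Mif, the macrophage migration inhibitory factor, at 12.64, 12.66 and 13.62, and Csf1 joined it without replicate 3. Il6 read 3.51, 3.51 and 3.21, and Tnf read 5.77, 5.77 and 5.85. Il18 differed most between arrays in this list, with 11.09, 11.11 and 7.38. Of 17 genes of antigen presentation 4 were bright, among them B2m, the light chain of class I molecules, at 13.40, 13.27 and 12.88. The class I transporter genes Tap1 and Tap2 were dim, with means of 6.82 and 6.47, as was the class II gene H2-Aa at 4.96, 4.96 and 4.92. Of 26 interferon response genes, 15 were moderate, 10 dim (38.5%, beside 39.6% of all genes) and 1 bright (3.8%, beside 10.0%). Their median was 7.248, beside 8.137 over all genes. The bright gene was Ifitm2 at 12.15, 12.22 and 12.03, and Mx1 was dim at 3.71, 3.61 and 3.61.

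Of 23 pluripotency and cancer stem cell markers, 2 were bright (8.7%, beside 10.0% of all genes). Another 6 were moderate and 15 dim (65.2%, beside 39.6%). Aldh1a1, given above, and the Krüppel-like factor Klf4, at 11.68, 11.68 and 11.41, were bright. The drug efflux pump Abcg2 read 11.26, 11.31 and 11.37, and the hyaluronan receptor Cd44 read 10.84, 10.92 and 11.97, both moderate. The core pluripotency factors were dim, with Pou5f1 at 4.22, 4.46 and 4.46, Nanog at 4.74, 4.99 and 4.56 and Sox2 at 3.26, 3.30 and 3.26. The surface markers Prom1, which is CD133, and Kit were dim too, with means of 4.21 and 4.45. Of 34 genes of the ABC superfamily, not all of which code for transporters, 1 was bright, Abcf1. It was not bright without replicate 3. Of 18 aquaporins and ion transport regulators 3 were bright, among them the water channel Aqp5 at 11.81, 11.87 and 11.11.

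The X chromosome gene Xist and the Y chromosome were looked at after their values were seen. Xist, the RNA that silences one X chromosome in female cells, was bright at 12.69, 12.80 and 12.57. Of 8 Y chromosome genes measured, 8 were dim, with means between 3.363 and 6.133. 

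The promoters of the classes differed in a feature that the ranking did not use. Mouse promoters either lie in a CpG island, rich in the CG dinucleotide, or lack one and more often carry a TATA box. RefSeq promoters (GRCm38.p6, 250 bases before to 50 after the annotated start) were found for 9887 genes, and the 7936 genes with a single promoter were used. The median ratio of observed to expected CG dinucleotides was 0.83 over 844 bright genes, 0.80 over 4020 moderate genes and 0.37 over 3072 dim genes, beside 0.71 over all 7936. TATAAA, searched anywhere in the 300 bases on both strands, was present in 9.4%, 5.9% and 17.3% of these promoters. This stood beside 10.7% of the 7936 measured genes and 14.8% of all 22855 single promoters in the table. Such a match need not be a TATA box. Starting 20 to 40 bases before the annotated start, on the strand of the gene, TATAAA was present in 1.7%, 1.3% and 6.1%. The share was 3.2% of the measured genes and 2.4% of all single promoters. GGGCGG, the core of an SP1 site, was present in 72.4%, 70.5% and 37.5%, beside 57.9% of the measured genes and 35.2% of all. These are descriptions of the classes, with no test. The lists varied too, with a median ratio of 0.94 over 33 ribosomal protein genes, 0.40 over 11 mesothelial markers, 0.30 over 10 keratins, 0.27 over 31 chemokines and cytokines and 0.24 over 97 reference genes. Bright genes with few CG dinucleotides occurred as well. The promoters below show this range, with CG in capitals on the strand of the gene. They are the bright Rplp0 (chr5:115559217-115559516, plus strand, 24 CG, ratio 0.93, with TATAAA starting at 17 after the annotated start), the bright Krt18 (chr15:102027966-102028265, plus strand, 17 CG, ratio 0.60), the bright mesothelial Upk3b (chr5:136038246-136038545, plus strand, 2 CG, ratio 0.08), the dim gut keratin Krt20 (chr11:99438104-99438403, minus strand, 6 CG, ratio 0.32, with TATAAA starting at -29 from the annotated start) and the dim liver gene Alb (chr5:90460620-90460919, plus strand, 3 CG, ratio 0.27).
Rplp0: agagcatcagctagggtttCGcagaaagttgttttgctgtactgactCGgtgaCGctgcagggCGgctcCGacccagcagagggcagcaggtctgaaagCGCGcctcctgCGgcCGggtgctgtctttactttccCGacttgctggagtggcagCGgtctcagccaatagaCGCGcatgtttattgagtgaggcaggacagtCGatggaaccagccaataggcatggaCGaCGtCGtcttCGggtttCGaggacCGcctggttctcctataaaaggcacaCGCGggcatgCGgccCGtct
Krt18: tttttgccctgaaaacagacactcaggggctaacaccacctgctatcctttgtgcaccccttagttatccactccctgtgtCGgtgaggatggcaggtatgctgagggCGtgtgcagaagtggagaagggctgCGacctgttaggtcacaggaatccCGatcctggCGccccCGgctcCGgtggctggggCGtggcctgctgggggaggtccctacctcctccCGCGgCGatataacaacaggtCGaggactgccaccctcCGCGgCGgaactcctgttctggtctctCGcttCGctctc
Upk3b: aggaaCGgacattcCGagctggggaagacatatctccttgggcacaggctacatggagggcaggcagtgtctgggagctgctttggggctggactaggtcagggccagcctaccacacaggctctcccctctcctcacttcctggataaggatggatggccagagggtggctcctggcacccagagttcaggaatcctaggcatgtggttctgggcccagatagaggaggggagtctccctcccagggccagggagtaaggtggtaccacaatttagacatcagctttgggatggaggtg
Krt20: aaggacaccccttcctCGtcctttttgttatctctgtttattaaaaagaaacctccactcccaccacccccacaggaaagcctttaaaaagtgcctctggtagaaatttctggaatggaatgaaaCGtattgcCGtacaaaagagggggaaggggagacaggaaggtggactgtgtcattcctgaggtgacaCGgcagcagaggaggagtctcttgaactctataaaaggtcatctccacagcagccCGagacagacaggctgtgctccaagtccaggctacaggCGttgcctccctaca
Alb: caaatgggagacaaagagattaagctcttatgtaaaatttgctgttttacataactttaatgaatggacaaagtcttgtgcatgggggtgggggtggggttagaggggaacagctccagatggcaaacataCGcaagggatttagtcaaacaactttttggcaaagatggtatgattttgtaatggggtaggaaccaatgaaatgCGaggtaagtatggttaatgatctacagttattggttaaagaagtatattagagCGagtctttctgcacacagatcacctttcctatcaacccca

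Agreement between arrays depended on the class. Between replicates 1 and 2 the SD of the differences was 0.072 over bright genes and 0.14 over dim genes. Between replicates 1 and 3 it was 0.456 over bright genes, 0.518 over moderate genes and 0.255 over dim genes. Pearson's r across all genes, which are not replicates, was 0.9991 for replicates 1 and 2 and 0.9878 for replicate 3 against either. By rank, 1047 of the 1239 bright genes (84.5%) were in the top 10% on each array. Of the 4913 dim genes, 4763 (96.9%) lay at or below the dim level of each array (6.94, 6.922 and 6.866). With the cuts of 6.905 and 11.39, 0 genes were dim on one array and bright on another.

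**Figure D4:**
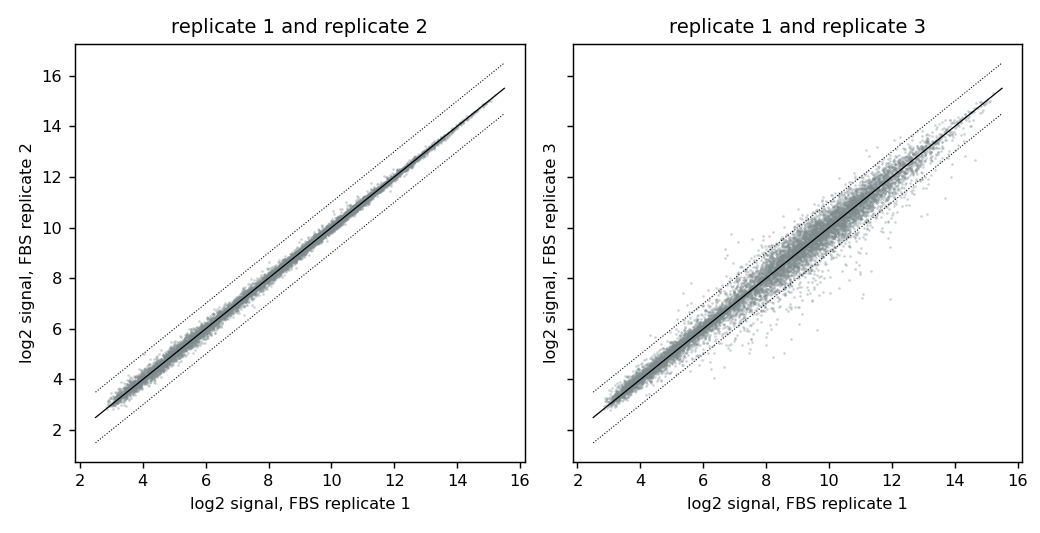
Deposited log2 signal of 12393 genes on FBS replicate 2 (left, y axis) and replicate 3 (right, y axis) against replicate 1 (x axes), with the line of equality and dotted lines at 2-fold. On the left 0 genes lie beyond the dotted lines, and on the right 435 do.

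Among bright and moderate genes the widest ranges over the arrays were all between replicate 3 and the other pair. Fxyd3, a regulator of the sodium pump, read 11.95, 11.94 and 7.16, the widest range at 4.79 on the log2 scale. Glul, glutamine synthetase, read 11.05, 11.12 and 7.23, and the lysosomal protease Ctsf read 9.61, 9.54 and 5.96. Of the 15 widest, 14 were lower on replicate 3, including Il18, Amhr2, Oplah, Cxcl17, Adgrg1 and Prss12, and 1 was higher, Mmp13. None of these genes was in the bright class by its mean over the 3 arrays, although Fxyd3 and Prss12 were bright without replicate 3, with means of 11.945 and 11.955.

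Lists of genes differed between the arrays in the same way. The median difference between replicates 1 and 2 was at most 0.055 on the log2 scale, either way, in each of 45 family lists. The median difference of replicate 3 from replicate 1 was 0.2 or more in 10 lists, led by glycolysis (0.83), DNA replication (0.58), cholesterol synthesis (0.52), mitosis (0.465) and cytosolic chaperones (0.425). In cholesterol synthesis replicate 3 was the highest array for 17 of 18 genes, beside 41.8% of all genes. Sqle, squalene epoxidase, read 11.58, 11.63 and 12.41. The difference was -0.2 or less in 4 lists, the mesothelial markers (-0.55), the ER chaperones (-0.24), TGF-beta and BMP signalling (-0.24) and the AP-1, EGR and MYC genes (-0.225). Over the remaining 31 lists it lay between these bounds, with ribosomal proteins at 0.06. Members of a list share the arrays, so these medians describe 1 array and not a condition.

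**Figure D5:**
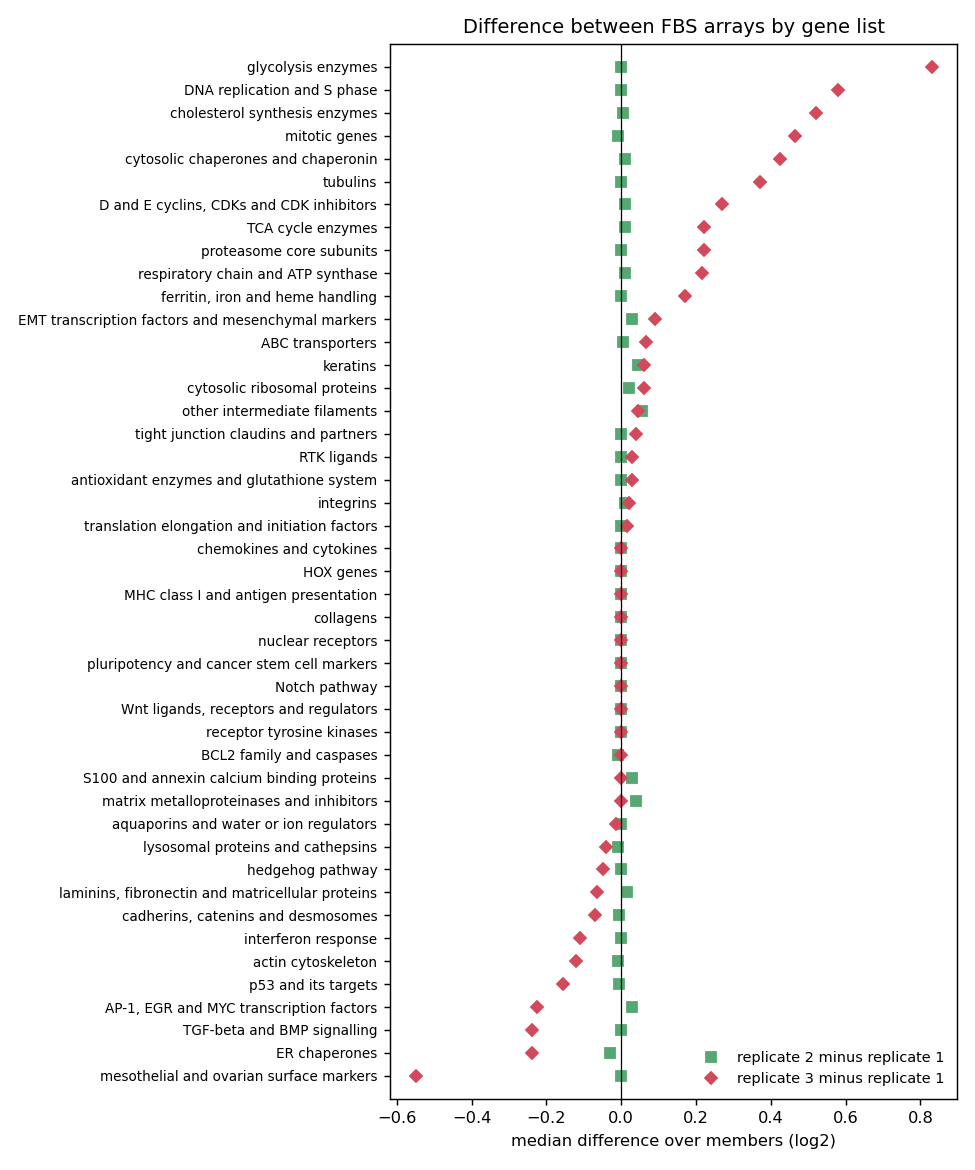
Median over members of the difference in deposited log2 signal (x axis) of replicate 2 from replicate 1 (squares) and replicate 3 from replicate 1 (diamonds) for 45 gene lists (y axis), ordered by the latter. The squares stay within 0.055 of 0, while the diamonds run from -0.55 for mesothelial markers to 0.83 for glycolysis.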

How the data were processed

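The authors deposited 1 log2 value per probe set and array, to 2 decimals, the scale being inferred from the range. Per the labels' protocols, lysates were shredded, RNA was purified on spin columns and the target was labelled with biotin. The submitters' processing notes name Affymetrix Expression Console for the arrays. Its version and its summarisation were not given in the sources used here. Array medians were 7.47, 7.46 and 7.4 over 22690 probe sets, and no further normalization was applied.

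Of these probe sets, 64 were controls, 20380 had 1 gene in the platform annotation, 691 had several and 1555 were unnamed. The controls and the last groups were left out. Among the 2246 probe sets that were unnamed or had several genes, 296 had a mean at or above the lowest bright mean. The ranking and the lists can therefore lack bright genes. Of the 20380, 20351 were found in a RefSeq table (GRCm38.p6). Means, ranks and counts were computed with Python 3.11.15, pandas 2.3.3 and numpy 2.4.6, tested on simulated data. The small number of arrays limits the precision. Genes named were drawn from the top 25, the 4 highest and 2 lowest of each of 57 lists, all cell type markers, members of lists with both bright and dim genes, Hspa5 and the 15 widest ranges. Genes at the class edges, Xist and those marked in the text were named after their values were seen. The members and lists were chosen with earlier results of these data known. The alternatives left out each array, averaged probe sets, took the median over arrays, dropped probe sets ending in _x_at or _s_at, added quantile normalization and moved each threshold and the reference lists. Protein features were not computed.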

Additional observations from a re-analysis of the deposited data

How the results depend on the processing

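No paired analysis was possible because 1 group was described and no groups were compared. The count of genes with a range of 1 or more over the arrays (498) depended on replicate 3: leaving out 1 array gave 0 to 442, with 0 without replicate 3. At a 1.5-fold range it was 1731. The count of genes in the bright class on each array (1047) was 517 for the top 5% and 2190 for the top 20%. Taking the mean of all probe sets of a gene left 844 of the 1239 bright genes bright and 89.0% of all genes in their class, and 263 of 784 bright genes with more than 1 probe set had another at or below the dim level. The dim count (4913) ran from 4036 to 5281 over the thresholds and reference lists tried, within 1.5 times. The number of lists with a bright median (8) was 9 without replicate 3, with the median over the arrays and with all probe sets averaged. The number with a dim median (21) was 23 with all probe sets averaged.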
